A study of Mus musculus with 12 samples.

Results

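Kitl, Kit, Cxcl12 and Cxcr4 encode 2 ligands and their receptors through which the somatic cells of the early gonad reach germ cells. These 4 genes were taken by symbol out of the 32285 features counted, and each was followed in somatic and in germ cells of single-cell RNA libraries from mouse fetal gonads. The libraries came from embryos at E12 (23 ± 3 tail somites), with 2 libraries in each of 6 groups, which were XX WT, XX -KTS KO, XX +KTS KO, XY WT, XY -KTS KO and XY +KTS KO. Wt1 encodes a zinc finger protein, and its transcript is spliced with or without the codons for the amino acids K, T and S. The -KTS KO embryos are homozygous for an allele that cannot make the form without them, and the +KTS KO embryos for an allele that cannot make the form with them. All 6 groups were on 1 mixed background, and no other allele or treatment is named. Per the study's methods, both gonads of an embryo were separated from the mesonephros before dissociation, and -KTS KO libraries pooled the gonads of several embryos, although 1 embryo is listed for XX -KTS KO replicate 1. Counts from the 3' end of transcripts do not tell the +KTS and -KTS forms of Wt1 apart, so the summed Wt1 level, 159 to 310 CPM (counts-per-million, a gene's share of all UMIs summed over a class of cells in a library) in gonadal somatic cells, checks the tissue and not the genotype.

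KIT is a receptor tyrosine kinase that germ cells carry on their surface. KITL, also called stem cell factor, is its ligand, made in a membrane-bound and a soluble form by the cells around them, and loss of either is known to deplete germ cells. CXCL12 is a secreted chemokine that guides primordial germ cells to the genital ridge through CXCR4, a G protein-coupled receptor, and ACKR3 is a second receptor that takes CXCL12 up and removes it. Both pairs are textbook signals of germ cell survival, growth and homing, and KIT and CXCR4 also act in blood and endothelial lineages.

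The promoters of the 4 genes are shown because WT1 binds DNA and 2 of the genes, Cxcl12 and Kit, were higher together in somatic cells of the -KTS KO. Each window holds 250 bases before and 50 bases after a RefSeq start site (GRCm38.p6), read 5′ to 3′ on the strand of the gene. Capitals mark the letters of 3 motifs searched on both strands, GGGCGG (the GC box), GCGNGGGNG (an element of the WT1 and EGR type) and TATAAA (the TATA box). The windows lie at chr10:100015571-100015870 (plus strand) for Kitl, chr5:75574737-75575036 (plus strand) for Kit, chr6:117168285-117168584 (plus strand) for Cxcl12 and chr1:128592250-128592549 (minus strand) for Cxcr4.
Kitl: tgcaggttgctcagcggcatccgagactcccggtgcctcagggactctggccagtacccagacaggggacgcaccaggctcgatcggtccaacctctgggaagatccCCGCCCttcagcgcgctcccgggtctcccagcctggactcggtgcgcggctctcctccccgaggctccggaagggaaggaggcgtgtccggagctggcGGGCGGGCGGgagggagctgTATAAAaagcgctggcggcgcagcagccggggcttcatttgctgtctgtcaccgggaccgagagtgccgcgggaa
Kit: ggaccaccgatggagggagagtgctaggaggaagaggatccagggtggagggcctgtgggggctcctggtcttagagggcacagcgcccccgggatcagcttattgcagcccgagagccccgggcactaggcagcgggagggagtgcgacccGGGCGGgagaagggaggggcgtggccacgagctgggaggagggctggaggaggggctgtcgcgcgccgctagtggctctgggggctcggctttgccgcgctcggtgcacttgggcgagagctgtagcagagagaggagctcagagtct
Cxcl12: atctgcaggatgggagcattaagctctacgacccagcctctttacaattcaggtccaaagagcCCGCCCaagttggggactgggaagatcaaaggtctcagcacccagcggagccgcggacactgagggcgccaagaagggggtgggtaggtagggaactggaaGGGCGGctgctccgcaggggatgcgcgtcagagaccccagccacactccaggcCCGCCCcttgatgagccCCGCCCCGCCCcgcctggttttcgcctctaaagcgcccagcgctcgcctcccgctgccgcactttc
Cxcr4: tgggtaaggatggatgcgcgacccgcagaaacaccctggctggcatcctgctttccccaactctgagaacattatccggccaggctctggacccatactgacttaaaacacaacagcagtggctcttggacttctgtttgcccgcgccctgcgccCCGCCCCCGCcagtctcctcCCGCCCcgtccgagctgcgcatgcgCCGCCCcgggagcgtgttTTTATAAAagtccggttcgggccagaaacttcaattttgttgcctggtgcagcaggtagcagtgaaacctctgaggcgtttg
In these letters Cxcl12 held 5 GC boxes, Kitl and Cxcr4 held 3 each, and Kit held 1. Of 32817 promoter windows of the same length, 35.6% held a GC box. Cxcr4 alone of the 4 held a GCGNGGGNG match, which overlaps one of its GC boxes and which 12.3% of all windows held. Kitl and Cxcr4 held a TATAAA, found in 13.6% of all windows, and the 2 matches in Cxcr4 overlap on opposite strands. No window of the 4 held AGATAA, a motif of factors such as GATA4 that 11.2% of all windows held. The windows were 68.7% G and C in Kitl, 69.0% in Kit, 64.7% in Cxcl12 and 59.3% in Cxcr4, against a median of 52.7% over all windows. A match here is a match of letters only. In the gene annotation used for coordinates (GENCODE M21, mm10), Kitl (ENSMUSG00000019966) spans chromosome 10, 100015630 to 100100416, Kit (ENSMUSG00000005672) chromosome 5, 75574916 to 75656722, Cxcl12 (ENSMUSG00000061353) chromosome 6, 117168535 to 117181367, and Cxcr4 (ENSMUSG00000045382) chromosome 1, 128588199 to 128592293.

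The libraries held 108111924 to 147968666 UMIs (unique molecular identifiers, 1 per captured RNA molecule) each, and 77545 cells were kept. Of these, 63790 were gonadal somatic cells, 7182 germ cells, 2059 endothelial cells, 1306 erythroid or platelet lineage cells, 253 immune cells and 68 mesonephric duct or tubule cells, with 2887 shallow cells left unnamed. The classes were named from clusters built without the 4 genes and their pathway genes. Germ cells carried 7555 to 10352 CPM of summed germ cell markers per library and gonadal somatic cells 14.9 to 97.6 CPM. These markers also named the clusters, so the gap follows from the naming and is no separate check of it. No cluster could be named perivascular. At most 33 cell barcodes were shared by any pair of libraries, 0.398% of the smaller library at most. Of the 12 libraries, 4 stood apart from the rest. In XX WT replicate 1, XY WT replicates 1 and 2 and XY -KTS KO replicate 1, gonadal somatic Rpl9-ps6, a ribosomal protein pseudogene, was at 160 to 186 CPM against 59.5 to 88.4 CPM in the other 8. Both XY WT libraries are among them, so each XY comparison with WT is given below also from a fit with a term for the libraries that stand apart, where a member was called. The labels do not say what sets these libraries apart.

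Across cell classes, both ligands were read in somatic cells and Kit in germ cells, while Cxcr4 was read in both germ and endothelial cells. Of 183502 Kitl UMIs, 94.9% lay in gonadal somatic cells, which were 82.3% of all cells, and 0.541% lay in germ cells. Of 43457 Cxcl12 UMIs, 97.3% lay in gonadal somatic cells. Germ cells were 9.26% of all cells and held 77.4% of 26689 Kit UMIs and 49.8% of 3511 Cxcr4 UMIs. Gonadal somatic cells held 18.7% of the Kit and 31.1% of the Cxcr4 UMIs, and endothelial cells, 2.66% of all cells, held 3.16% and 17.3%.

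As a level per library, in CPM of summed counts, Kitl was 190 ± 94.2 (SD, n = 12) in gonadal somatic cells, 175 ± 49.4 in endothelial cells and 3.51 ± 2.71 in germ cells. Gonadal somatic cells were above endothelial cells in only 5 of 12 libraries, so the order of these 2 classes is not resolved. Both means lay above the 10.8 CPM of erythroid and platelet lineage cells, a class used here as a rough gauge of free RNA in the droplets. These blood cells can also express a gene themselves. After thinning to 5000 UMIs, for example, Ackr3 was seen in 16.8% of them and 2.26% of gonadal somatic cells. A likeness to this class thus does not show that a value is free RNA. Kit was 87.5 ± 14.5 CPM in germ cells and 23.8 ± 11.5 CPM in endothelial cells. Germ cells were above endothelial cells in 12 of 12 libraries, with a mean log2 difference of 1.94 and ranges that did not overlap (69.6 to 113 against 12.1 to 52.0 CPM). Gonadal somatic Kit was 5.48 ± 4.32 CPM, which overlapped the erythroid class at 3.44 CPM, and in immune cells Kit ran from 0 to 54.4 CPM over the 6 libraries with at least 20 of them. Cxcl12 ran from 12.2 to 107 CPM in gonadal somatic cells, against 2.78 CPM in endothelial and 1.14 ± 0.79 CPM in germ cells. Cxcr4 was 20.1 ± 15.3 CPM in endothelial cells and 7.40 ± 1.65 CPM in germ cells, and endothelial cells were the higher of the 2 in 10 of 12 libraries, with overlapping ranges. Germ cells were above gonadal somatic cells, at 1.17 ± 0.53 CPM, in 12 of 12 libraries (mean log2 difference 1.96), and the ranges did not overlap. The classes come from clustering of the same cells, so these differences are given with no test.

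**Figure D1:**
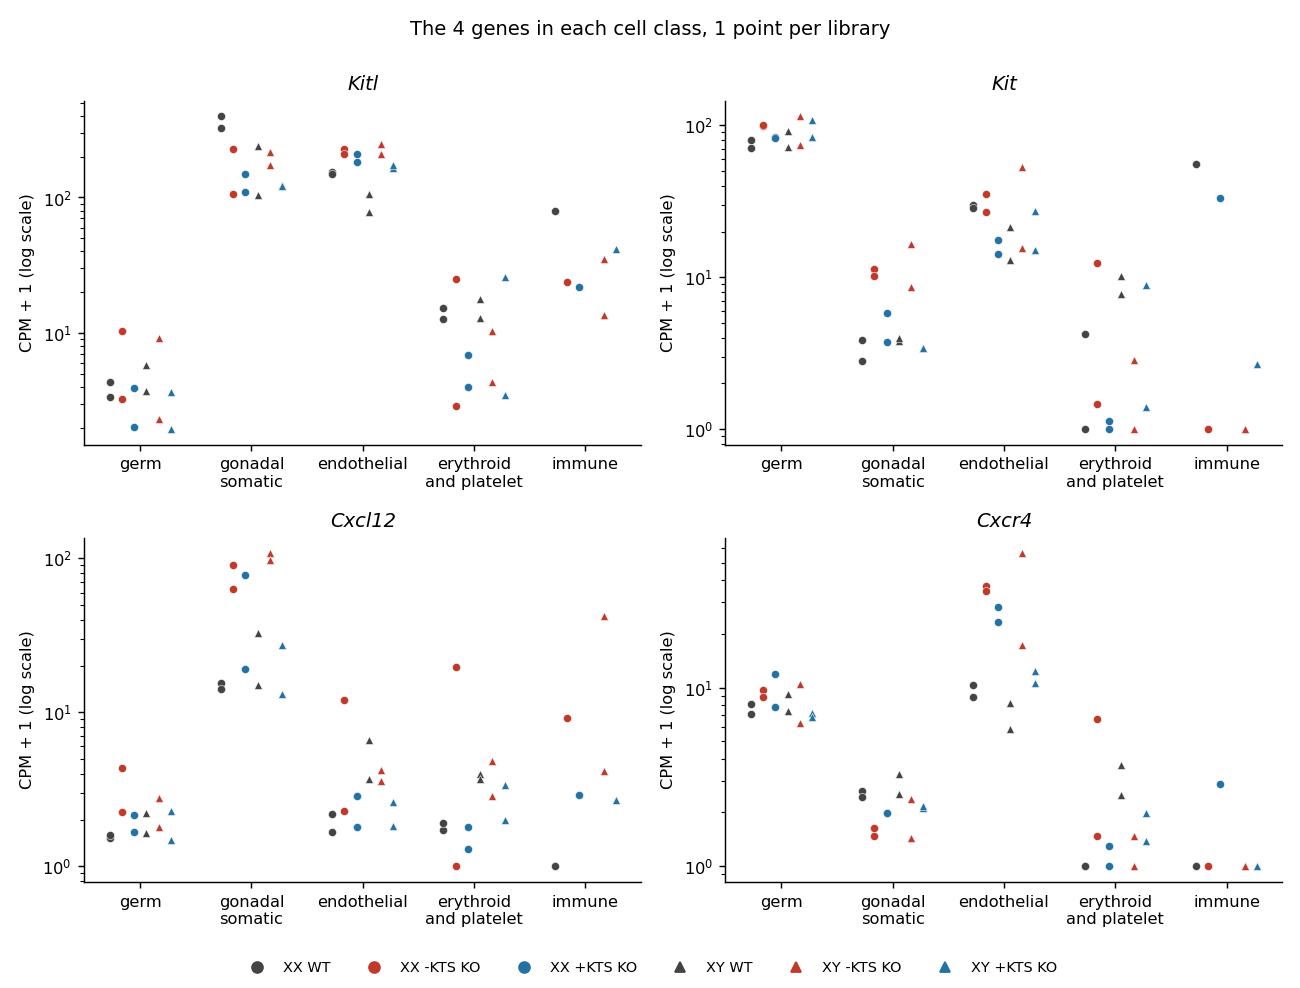
Level of Kitl, Kit, Cxcl12 and Cxcr4 (CPM + 1, log scale) in germ, gonadal somatic, endothelial, erythroid and platelet, and immune cells, with 1 point per library and the 6 groups by colour and shape. Kitl is high in gonadal somatic and endothelial cells, Kit is highest in germ cells (69.6 to 113 CPM), Cxcl12 is highest in gonadal somatic cells in most libraries, and Cxcr4 overlaps between germ and endothelial cells.

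The share of cells in which a gene was seen depends on depth, since the median germ cell held 17714 to 59357 UMIs per library and the median gonadal somatic cell 9953 to 19303. After each cell was thinned to 5000 UMIs, a Kit UMI was found in 28.8 to 38.7% of germ cells per library (62.7 to 89.7% unthinned). Over all libraries the thinned share was 33.1% in germ cells, 2.48% in gonadal somatic cells and 0.744% in erythroid and platelet lineage cells, whose median depth was 3931 to 38100 UMIs per library. Cxcr4 was seen in 2.00 to 5.52% of thinned germ cells (12.9 to 34.8% unthinned), and over all libraries in 3.91% of germ, 6.69% of endothelial, 0.580% of gonadal somatic and 0.413% of erythroid and platelet lineage cells. At this depth most germ cells gave no Cxcr4 UMI, and the somatic share was near that of the erythroid class. A Kitl UMI was found in 23.3 to 61.6% of gonadal somatic cells (35.0 to 76.9% unthinned), and over all libraries in 38.8% of gonadal somatic, 43.7% of endothelial, 1.54% of germ and 3.64% of erythroid and platelet lineage cells. Cxcl12 was found in 4.41 to 33.1% of gonadal somatic cells (7.92 to 58.1% unthinned), and over all libraries in 14.4% of gonadal somatic, 0.832% of germ and 1.16% of erythroid and platelet lineage cells. Among germ cells deep enough to be thinned, both ligands thus stayed at or below the share in the erythroid class. That share can hold RNA of the blood cells themselves as well as free RNA. Thinning left out 688 germ cells, 505 of them in XX -KTS KO, 2772 gonadal somatic cells, 1617 of them in XY +KTS KO, and 206 endothelial cells with fewer UMIs. The germ cells include a shallow cluster of 1048 cells, 75.9% of them from -KTS KO. In its 10 libraries with enough cells Kitl was at 0 to 103 CPM (mean 27.5) and Kit at 18.7 to 86.2 CPM (mean 50.8), where the other 2 germ cell clusters had means of 2.53 and 2.40 CPM of Kitl and 90.7 and 89.4 CPM of Kit. Erythroid and platelet lineage cells held a mean of 10.8 CPM of Kitl over the 12 libraries.

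Between groups, each class was tested on UMIs summed per library. In gonadal somatic cells, 2 of the 4 genes, Cxcl12 and Kit, passed an adjusted p of 0.05 in each comparison of a -KTS KO with WT, and 0 of 4 passed in the +KTS KO comparisons, between the WT sexes or in the sex difference of either mutant's effect. As background, 16.4% of 17714 genes tested were called in XX -KTS KO, 23.6% in XY -KTS KO, 5.04% in XX +KTS KO, 12.8% in XY +KTS KO and 13.8% between XX WT and XY WT, and 3.1% and 4.04% in the sex differences of the -KTS KO and +KTS KO effects. In germ cells 0 of 4 passed in any comparison. There 0.0654%, 0.00726%, 0.0726%, 0% and 0.813% of 13771 genes were called in the same order of comparisons, and 0.0581% and 0.0508% in the sex differences. Each group has 2 libraries, and the spread is estimated over all 6 groups.

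Kitl, the ligand of KIT, differed in none of the comparisons between groups at an adjusted p of 0.05, although its level spread widely. In summed gonadal somatic cells, the 2 XX WT libraries had Kitl at 326 and 395 CPM, those of XX -KTS KO at 105 and 228, and those of XX +KTS KO at 109 and 149. Both XX WT libraries lay above every other library. In XY gonads Kitl was at 104 and 241 CPM in WT, 171 and 214 in -KTS KO, and 123 and 120.3 in +KTS KO. Each XY mutant group lay within the range of the 2 XY WT libraries, which differed from each other by more than the means of the XY groups did. Against XX WT, the log2 difference was -1.06 in XX -KTS KO (SE 0.38, 95% interval -1.91 to -0.20, Benjamini-Hochberg adjusted p = 0.0901 in edgeR's quasi-likelihood test, called the edgeR adjusted p below) and -1.45 in XX +KTS KO (SE 0.38, -2.31 to -0.59, edgeR adjusted p = 0.0627). The same test gave 0.14 for XY -KTS KO (-0.70 to 0.99, edgeR adjusted p = 0.818) and -0.57 for XY +KTS KO (-1.41 to 0.28, edgeR adjusted p = 0.335), each against XY WT. XX WT differed from XY WT by 1.01 (SE 0.38, 0.16 to 1.86, edgeR adjusted p = 0.112). The XX differences passed under DESeq2, with no filter on low counts and with the replicate number as a block, so Kitl in XX gonads lies at the edge of the threshold. The effect of the -KTS KO differed between the sexes by -1.20 (-2.39 to -0.01, edgeR adjusted p = 0.272) and that of the +KTS KO by -0.88 (edgeR adjusted p = 0.396). With 1 library left out these ran from -1.85 (XX -KTS KO replicate 2) to -0.75 (XX -KTS KO replicate 1) and from -1.51 (XY WT replicate 2) to -0.44 (XY WT replicate 1).

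Within the somatic cells, Kitl was highest among the named types in supporting-type cells. The summed gonadal somatic class mixes cell types whose shares differ between groups, and more cells of a type cannot be told apart there from more RNA per cell. Pre-supporting-like cells, the bipotential precursors of Sertoli and granulosa cells, held 446 to 729 CPM of Kitl in WT, 335 to 599 in -KTS KO and 232 to 372 in +KTS KO libraries. Pre-granulosa-like cells, the female supporting lineage, held 522 and 644 CPM in XX WT. Of the +KTS KO libraries only XX replicate 1 (43 cells) and XY replicate 1 (3153 cells) held enough cells so named, at 151 and 199 CPM. The study itself named clusters of +KTS KO cells of both sexes pre-granulosa. The marker rule used here can leave such cells unnamed, so a low count does not show that they were absent. The 2 XY +KTS KO libraries differ in make-up, since pre-granulosa-like cells were 49.8% of somatic cells in replicate 1 and 0.167% in replicate 2, and unnamed cells 4.72% and 56.0%. Sertoli-like cells, the male supporting lineage, held 241 and 322 CPM in the 2 XY WT libraries. Coelomic epithelial-like cells held 18.6 to 135 CPM, and interstitial progenitor-like cells, the precursors of the steroid-producing and stromal cells, held 8.76 to 192 CPM. Among the interstitial progenitor-like cells of WT, the 2 XX libraries (116 and 192 CPM) lay above the 2 XY libraries (8.76 and 36.8 CPM). The -KTS KO libraries ran from 36.2 to 121 CPM in this type and overlapped both. The clusters with the highest Kitl were, summed over all libraries, one led by Sprr2d and Fst (689 CPM), one led by Fst and Col12a1 (570 CPM), both pre-granulosa-like and of WT, and a pre-supporting-like one led by Wfdc13 and Wfdc10 (493 CPM), 99.7% of whose 3884 cells came from -KTS KO. In XX WT, pre-granulosa-like cells held 78.7 ± 2.8% (SD, n = 2) of the Kitl UMIs of gonadal somatic cells. In the -KTS KO, pre-supporting-like cells were 22.4% of gonadal somatic cells in XX and 23.3% in XY, and held 68.1 ± 9.7% and 71.8 ± 6.1% of the Kitl UMIs. In XY WT, Sertoli-like cells were 26.2% of the class and held 49.5 ± 18.3%, or 62.5% in replicate 1 and 36.6% in replicate 2. Cells of clusters that met no marker rule were 13.7 and 31.6% of the class in these libraries and held 30.7 and 51.6% of its Kitl UMIs, more than the Sertoli-like cells in replicate 2. In XX +KTS KO, clusters that met no marker rule were 51.5% of the class and held 70.8%, most of them cells led by Cyp11a1 and Pnmt. These clusters are nearly private to a genotype, so values within a type set different clusters beside each other and carry no test.

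Cxcl12, the chemokine, rose in gonadal somatic cells of the -KTS KO in both sexes. XX WT libraries held 14.5 and 13.2 CPM, XX -KTS KO libraries 62.1 and 89.3 CPM, and XX +KTS KO libraries 18.3 and 77.0 CPM. In XY gonads it was at 31.9 and 14.0 CPM in WT, 107 and 97.2 in -KTS KO, and 12.2 and 26.4 in +KTS KO. All 4 -KTS KO libraries lay above all 4 WT libraries, while XX +KTS KO held 1 library among the WT values and 1 among the -KTS KO values. The log2 difference from WT was 2.51 in XX -KTS KO (SE 0.65, 95% interval 1.06 to 3.96, edgeR adjusted p = 0.0271), 5.70-fold, and 2.08 in XY -KTS KO (SE 0.64, 0.66 to 3.51, edgeR adjusted p = 0.0395), 4.24-fold. As background, 6.7% of genes were called higher in the XX and 11.1% in the XY comparison. The XX +KTS KO difference was 1.79 (SE 0.63, 0.38 to 3.21, edgeR adjusted p = 0.155), and the XY +KTS KO difference was -0.34 (-1.71 to 1.04, edgeR adjusted p = 0.743). XX WT differed from XY WT by -0.83 (-2.22 to 0.56, edgeR adjusted p = 0.428), and neither mutant's effect was shown to differ between the sexes (0.43, edgeR adjusted p = 0.870, for -KTS and 2.13, 0.16 to 4.10, edgeR adjusted p = 0.214, for +KTS). Both calls are fragile. With a term for the libraries that stand apart the differences were 2.61 (edgeR adjusted p = 0.0668) and 2.17 (edgeR adjusted p = 0.0728). The XX +KTS KO difference was 0.49 without XX +KTS KO replicate 2 and 2.47 without replicate 1, and the +KTS sex difference ran from 0.82 (without XX +KTS KO replicate 2) to 2.91 (without XY +KTS KO replicate 2). The XX -KTS KO call was lost without any 1 of its 4 libraries, and the XY call without XY -KTS KO replicate 1, XY -KTS KO replicate 2 or XY WT replicate 2 (edgeR adjusted p = 0.0687 to 0.201). With the replicate number as a block the XY difference was 2.02 (edgeR adjusted p = 0.0528).

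Within the somatic cells, Cxcl12 was higher in interstitial and coelomic cells than in supporting-type cells, and the -KTS KO values were above WT in each type both genotypes shared. Interstitial progenitor-like cells held 17.9 and 17.6 CPM in XX WT and 47.9 and 23.7 in XY WT, against 73.2 and 104 CPM in the XX libraries and 130 and 106 CPM in the XY libraries of -KTS KO. In +KTS KO the same type ran from 14.1 to 85.8 CPM. Coelomic epithelial-like cells held 19.9 to 56.7 CPM in WT, 62.4 to 99.4 in -KTS KO and 12.5 to 42.6 in +KTS KO. Pre-supporting-like cells held 3.56 to 4.80 CPM in WT, 33.0 to 56.9 in -KTS KO and 0 to 14.0 in +KTS KO, with few such cells in WT. In these 3 types the WT and -KTS KO libraries did not overlap. Sertoli-like cells were low, at 1.33 and 1.40 CPM, as were pre-granulosa-like cells of WT, at 1.47 to 7.61 CPM. The cluster with the highest Cxcl12, at 606 CPM summed over all libraries, was a group of 470 cells led by Sfrp2, Twist1, Nefm and Lum. Of this cluster, 71.3% came from -KTS KO. In XX -KTS KO replicates 1 and 2, interstitial progenitor-like cells held 50.7 and 36.6% of the Cxcl12 UMIs. Coelomic epithelial-like cells held 32.6 and 46.5% and pre-supporting-like cells 12.5 and 14.9%, so the leading type differed between the 2 libraries. The make-up of the class differed too. Interstitial progenitor-like cells were 50.8 and 37.1% of its cells, coelomic epithelial-like cells 27.2 and 37.7%, and pre-supporting-like cells 20.4 and 24.3%. In the 2 XX WT libraries coelomic epithelial-like cells held 48.1 and 38.5% of the Cxcl12 UMIs, interstitial progenitor-like cells 28.7 and 16.9%, and unnamed cells 17.4 and 39.1%. Interstitial progenitor-like cells were 58.1% of the class and held 91.4% of these UMIs in XY WT replicate 1, against 35.7% and 63.6% in replicate 2. The WT and -KTS KO cells of a type came from different clusters here too. The interstitial progenitor-like cells of -KTS KO came mostly from a cluster led by Ecm1 and Il33 (6124 cells) and those of WT from a cluster led by Dkk1 and Hsd11b2 (3199 cells) and from another of 4238 cells.

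**Figure D2:**
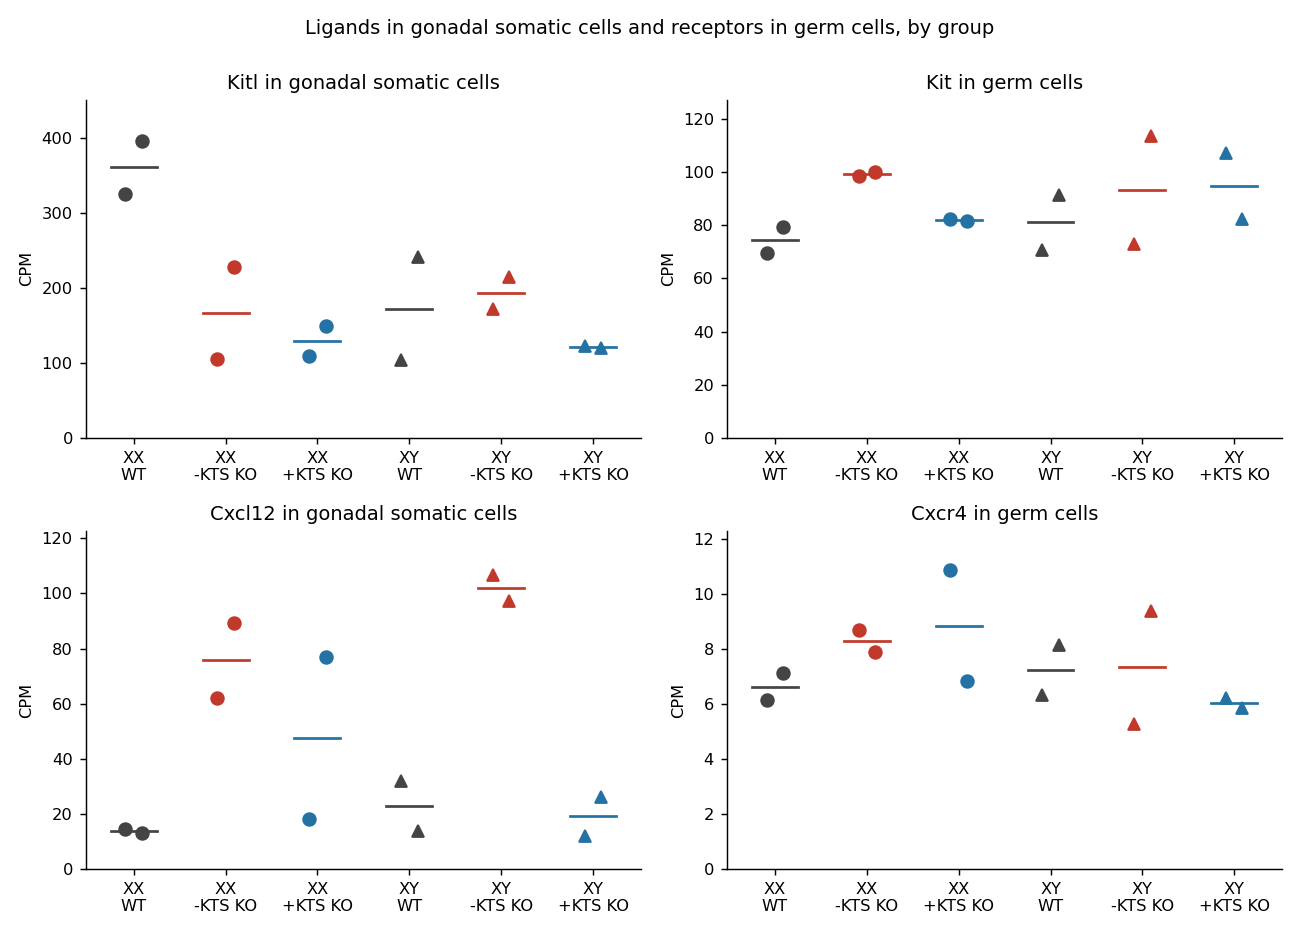
Level in CPM of Kitl and Cxcl12 in summed gonadal somatic cells and of Kit and Cxcr4 in germ cells, by group, with 1 point per library and a bar at the mean of the 2. Kitl is highest in both XX WT libraries (326 and 395 CPM), Cxcl12 is highest in the 4 -KTS KO libraries apart from 1 XX +KTS KO library at 77.0 CPM, and Kit and Cxcr4 lie within 69.6 to 113 CPM and 5.29 to 10.9 CPM.

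The 2 ligands met in the same cell less often than their separate shares would give. In gonadal somatic cells the share with a UMI of both Kitl and Cxcl12 was below the product of their separate shares in 12 of 12 libraries. The ratio of the observed share to that product was 0.261 to 0.464 in WT, 0.431 to 0.622 in +KTS KO and 0.830 to 0.951 in -KTS KO. In -KTS KO 5.34 to 13.3% of gonadal somatic cells held both, against 0.855 to 1.60% in WT and 0.623 to 4.29% in +KTS KO, so each -KTS KO library lay above the other 8. Kit and Cxcr4 together in a germ cell fell below the product in 4 of 12 libraries. These shares are counted in cells thinned to the same depth and are given as a description.

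Kit, the receptor of KITL, was not shown to differ between groups in germ cells. Germ cells of XX WT held 69.6 and 79.5 CPM of Kit, those of XX -KTS KO 98.6 and 100.1 CPM, and those of XX +KTS KO 82.2 and 81.8 CPM. In XY gonads it was 70.9 and 91.3 CPM in WT, 73.0 and 113 in -KTS KO, and 107 and 82.5 in +KTS KO. The XX groups did not overlap, and the XY groups did. Against XX WT the log2 difference was 0.49 in XX -KTS KO (SE 0.19, 95% interval 0.07 to 0.92, edgeR adjusted p = 0.392) and 0.20 in XX +KTS KO (-0.23 to 0.63, edgeR adjusted p = 0.859). Against XY WT it was 0.26 in XY -KTS KO (-0.17 to 0.68, edgeR adjusted p = 0.874) and 0.24 in XY +KTS KO (-0.19 to 0.67, edgeR adjusted p = 0.823), and XX WT differed from XY WT by -0.13 (-0.55 to 0.30, edgeR adjusted p = 0.928). With the term for the libraries that stand apart the XX -KTS KO difference was 0.30 (edgeR adjusted p = 0.613). The intervals of the 5 comparisons allow Kit to differ by less than 1 log2 unit in either direction. In germ cells few genes of any kind were called. The 0 of XY +KTS KO stands beside 1058 of 13771 genes at an unadjusted p under 0.05 in edgeR and 23 genes called by DESeq2. Some genes pass an unadjusted threshold with no difference, so the 1058 is no count of changed genes.

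Cxcr4, the receptor of CXCL12, was low in germ cells and not shown to differ either. In XX germ cells Cxcr4 was at 6.15 and 7.12 CPM in WT, 8.71 and 7.88 CPM in -KTS KO, and 10.9 and 6.82 CPM in +KTS KO. In XY germ cells the same groups held 6.35 and 8.16 CPM, 5.29 and 9.40 CPM, and 6.24 and 5.85 CPM. The WT and mutant ranges overlapped in each comparison except XX -KTS KO and XY +KTS KO, whose libraries lay on 1 side of WT. The log2 differences from WT were 0.40 (-0.23 to 1.03, edgeR adjusted p = 0.646) in XX -KTS KO, 0.50 (-0.14 to 1.14, edgeR adjusted p = 0.701) in XX +KTS KO, 0.07 (-0.55 to 0.70, edgeR adjusted p = 0.968) in XY -KTS KO and -0.25 (-0.90 to 0.40, edgeR adjusted p = 0.898) in XY +KTS KO. Without XX +KTS KO replicate 1 the XX +KTS KO difference was 0.0993, and without replicate 2 it was 0.79. The data allow any difference inside these intervals, and no limit of detection was computed.

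**Figure D3:**
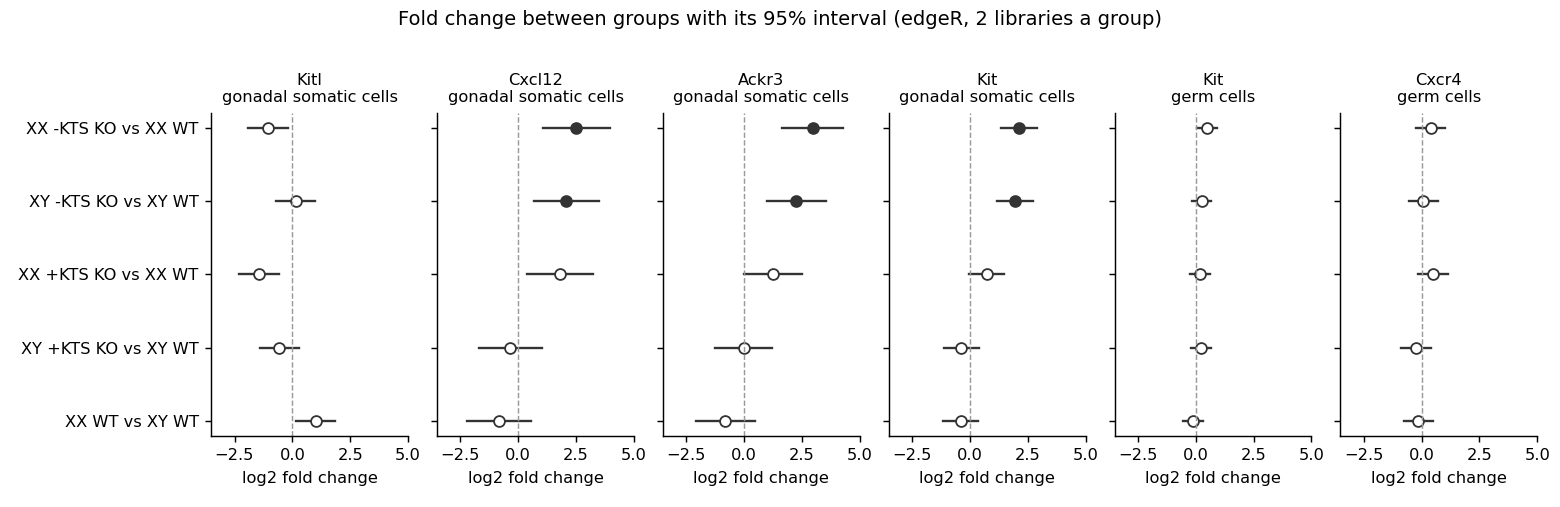
Log2 fold change with its 95% interval for Kitl, Cxcl12, Kit and Ackr3 in gonadal somatic cells and Kit and Cxcr4 in germ cells, for each comparison between groups of 2 libraries. Filled circles mark an adjusted p of at most 0.05. They are the -KTS KO comparisons of Cxcl12, Kit and Ackr3 in gonadal somatic cells.

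Kit was also read at a low level in gonadal somatic cells, and there it rose in the -KTS KO of both sexes. Somatic cells of XX WT held 1.82 and 2.84 CPM of Kit, those of XX -KTS KO 10.4 and 9.16 CPM, and those of XX +KTS KO 2.74 and 4.84 CPM. In XY gonads it was at 2.82 and 3.01 CPM in WT, 7.67 and 15.6 in -KTS KO, and 2.40 and 2.42 in +KTS KO. All 4 -KTS KO libraries lay above the other 8. The log2 difference was 2.13 in XX -KTS KO (SE 0.35, 95% interval 1.34 to 2.91, edgeR adjusted p = 0.00364), 4.37-fold, and 1.95 in XY -KTS KO (SE 0.35, 1.17 to 2.73, edgeR adjusted p = 0.00349), 3.86-fold. These calls held with each library left out in turn, where the difference ran from 1.87 to 2.45 in XX (edgeR adjusted p = 0.0165 to 0.0393) and from 1.37 to 2.36 in XY (edgeR adjusted p = 0.00296 to 0.0277). With a term for the libraries that stand apart they were 1.77 in XX (edgeR adjusted p = 0.00703) and 1.48 in XY (edgeR adjusted p = 0.00827). In the +KTS KO the differences were 0.73 in XX (edgeR adjusted p = 0.302) and -0.36 in XY (edgeR adjusted p = 0.50). With 1 library left out the XX difference ran from 0.33 to 1.05. Under the other settings with all libraries the XY difference ran from -1.15 to -0.24.

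Since germ cells carry far more Kit, the level of germ cell RNA in the somatic cells was measured beside it. Somatic Kit was 9.15 to 13.8% of the germ cell level in the 4 -KTS KO libraries and 2.24 to 5.91% in the other 8. The summed germ cell markers other than Utf1, which is left out of this share, were in the same somatic cells at 0.122 to 0.148% of their germ cell level in 3 -KTS KO libraries, 0.610% in XX -KTS KO replicate 2 and 0.0562 to 0.612% in the others. With Utf1 the sum in somatic cells was 14.9 to 16.4 CPM in those 3 libraries, 57.6 CPM in XX -KTS KO replicate 2 and 41.1 to 97.6 CPM in the others. The part of germ cell RNA in somatic Kit was not tested. Kit in erythroid and platelet lineage cells of -KTS KO was 0.47 and 11.4 CPM in the XX libraries and 0 and 1.87 CPM in the XY libraries, and 0 to 9.20 CPM in the other groups. XX -KTS KO replicate 2, with 11.4 CPM, also had the highest Cxcl12 (18.8 CPM) and Cxcr4 (5.68 CPM) in that class, beside 24.0 CPM of Kitl. After thinning, 4.70 and 5.38% of gonadal somatic cells of the XX -KTS KO libraries held a Kit UMI, as did 4.33 and 6.92% of those of XY -KTS KO, against 0.818 to 2.36% in the other groups and 0 to 2.83% of erythroid and platelet lineage cells. By type, Kit was 14.8 and 16.2 CPM in XX and 11.5 and 21.5 CPM in XY interstitial progenitor-like cells of -KTS KO, against 2.61 to 4.97 CPM in the other groups. Pre-supporting-like cells of -KTS KO held 7.79 to 19.9 CPM against 0 to 3.20 CPM elsewhere. In WT that type was 44 to 72 cells with 0 to 2 Kit UMIs in the 3 libraries that held at least 20 such cells, and the 0 in XX WT replicate 2 allows up to 2.67 CPM at 3 UMIs, for counting error only. In coelomic epithelial-like cells the -KTS KO (2.11 to 5.66 CPM) and other libraries (1.58 to 7.44 CPM) overlapped.

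**Figure D4:**
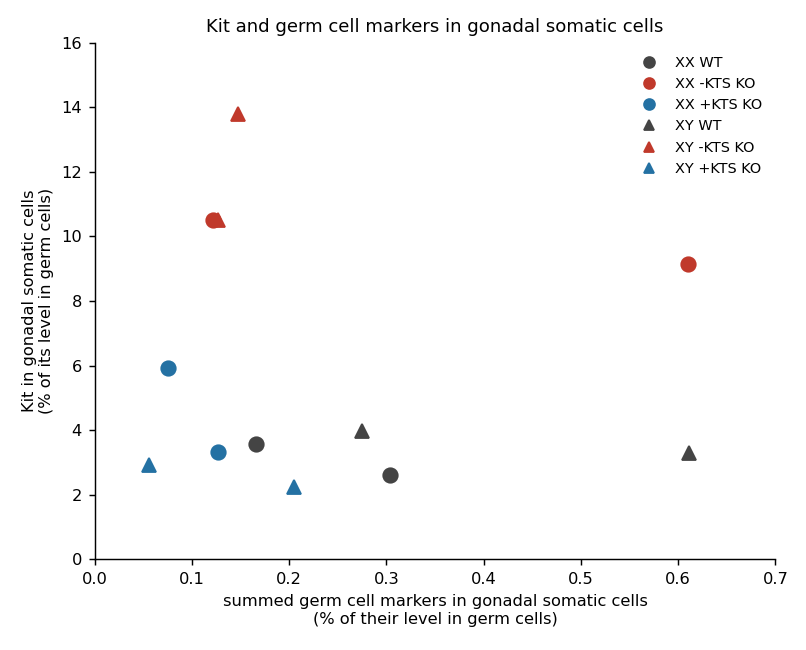
Kit in gonadal somatic cells as a percentage of its germ cell level in the same library (vertical axis) against the summed germ cell markers, Utf1 left out, treated the same way (horizontal axis), with 1 point per library and the 6 groups by colour and shape. The 4 -KTS KO libraries lie at 9.15 to 13.8% for Kit and the other 8 at 2.24 to 5.91%, while for the germ cell markers 3 of the 4 lie at 0.122 to 0.148%, XX -KTS KO replicate 2 at 0.610% and the other 8 at 0.0562 to 0.612%.

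**Figure D5:**
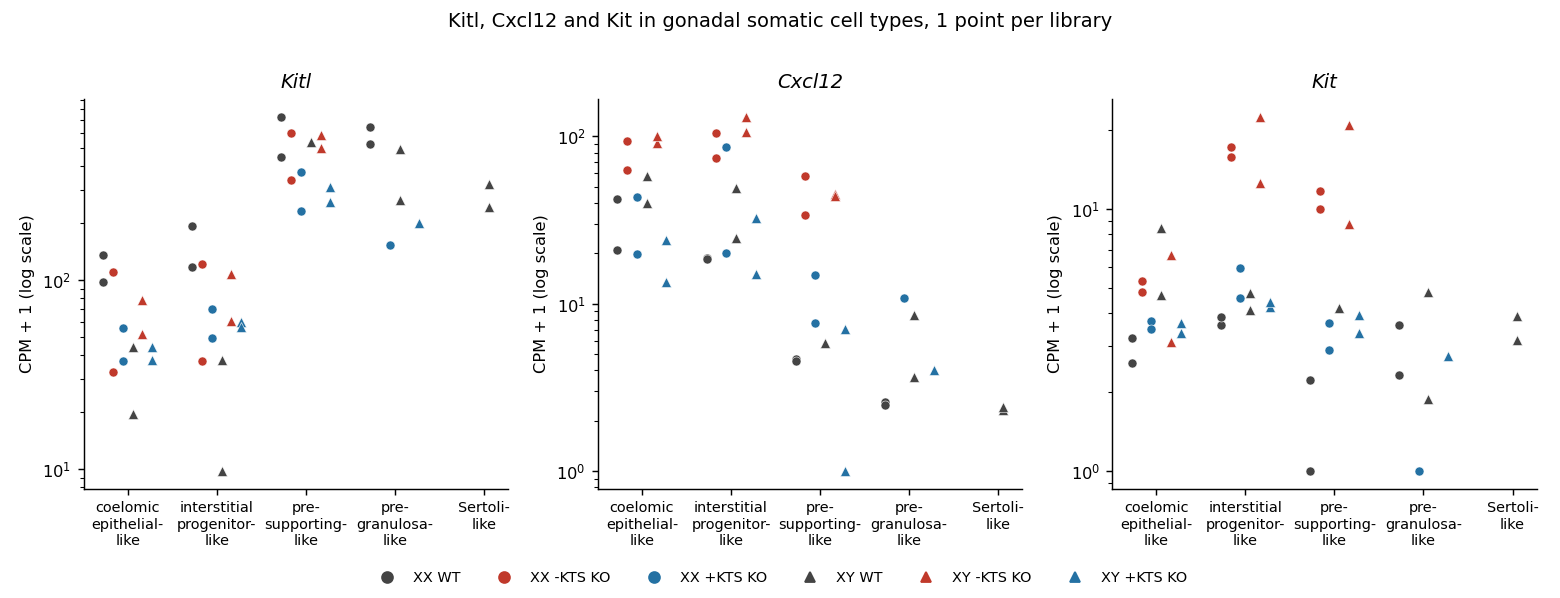
Level (CPM + 1, log scale) of Kitl, Cxcl12 and Kit in 5 gonadal somatic cell types, with 1 point per library and the 6 groups by colour and shape. Kitl is highest in the pre-supporting-like, pre-granulosa-like and Sertoli-like cells, Cxcl12 in the coelomic epithelial-like and interstitial progenitor-like cells, and Kit stands out in interstitial progenitor-like and pre-supporting-like cells of the -KTS KO.

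Ackr3, the receptor that removes CXCL12, was higher in gonadal somatic cells of the -KTS KO as well. In replicate order it was at 1.75 and 1.00 CPM in XX WT, 14.4 and 5.99 in XX -KTS KO, 2.33 and 2.22 in XY WT, and 10.4 and 12.2 in XY -KTS KO. The -KTS KO libraries lay above all others, +KTS KO being at 1.45 and 4.99 CPM in XX and 3.10 and 1.79 CPM in XY. The log2 difference was 2.96 in XX -KTS KO (SE 0.59, edgeR adjusted p = 0.00865), 7.79-fold, and 2.27 in XY -KTS KO (SE 0.57, edgeR adjusted p = 0.0173), 4.81-fold. The XX call was lost without XX WT replicate 2 (2.58, edgeR adjusted p = 0.0698) or XX -KTS KO replicate 1 (2.17, edgeR adjusted p = 0.0652), and the difference reached 3.46 without XX -KTS KO replicate 2. In XY, the call was lost without any of its 4 libraries but XY -KTS KO replicate 1 (edgeR adjusted p up to 0.0928). With a term for the libraries that stand apart Ackr3 differed by 3.14 in XX (edgeR adjusted p = 0.0271) and 2.43 in XY (edgeR adjusted p = 0.0363). In +KTS KO the Ackr3 differences were 1.24 in XX (edgeR adjusted p = 0.280) and -0.01 in XY (edgeR adjusted p = 0.993), and the former ran from 0.17 without XX +KTS KO replicate 2 to 1.86 without replicate 1. Cxcr4 in gonadal somatic cells was at 1.63 and 1.45 CPM in XX WT, 0.48 and 0.65 in XX -KTS KO, 1.52 and 2.28 in XY WT and 0.45 and 1.39 in XY -KTS KO, with differences of -1.40 (edgeR adjusted p = 0.0603) and -1.08 (edgeR adjusted p = 0.0983). In the summed class the 2 receptors of CXCL12 lay on opposite sides of WT, with the test passed for Ackr3 alone. After thinning, Cxcr4 was seen in only 0.580% of these cells. Its -KTS KO and WT ranges overlapped in pre-supporting-like (0.689 to 2.59 and 0 to 1.22 CPM), interstitial progenitor-like and coelomic epithelial-like cells. Those of Ackr3 overlapped in pre-supporting-like and coelomic epithelial-like cells. In interstitial progenitor-like cells Ackr3 was 11.8 to 26.5 CPM in -KTS KO and 1.14 to 2.10 CPM in WT. Of all genes, 6.7% were higher in XX -KTS KO and 11.1% in the XY comparison. After thinning, an Ackr3 UMI was in 2.26% of gonadal somatic and 16.8% of erythroid and platelet lineage cells, and the part of erythroid RNA in the somatic values was not tested. In endothelial cells outside a cluster that is mostly WT, Ackr3 was 8.16 ± 4.43 CPM in XX WT and 38.4 ± 10.4 CPM in XX -KTS KO (SD, n = 2), while in XY the libraries spanned 12.4 to 17.0 CPM in WT and 40.9 to 59.0 CPM in -KTS KO, values that were not tested.

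Genes related to the 2 pathways were followed as lists, of 33 genes for KIT signalling, 23 for CXCL12 signalling (Ackr3 among them) and 24 for germ cell survival and migration, none of which holds the 4 members. Not all of them act downstream of KIT or CXCR4, as with Ackr3, a second receptor of CXCL12. In germ cells, where the receptors sit, 29 genes of the KIT list, 21 of the CXCL12 list and 24 of the survival list were tested, and edgeR called none in any of the 4 comparisons of a mutant with WT, where at most 0.0726% of all genes were called. At an unadjusted p under 0.05 there were 5 to 7 of the 74 genes in each, and DESeq2 called 1 KIT list gene in each XX comparison and 1 survival list gene in XY +KTS KO. The count of all genes at that unadjusted p is given above for XY +KTS KO alone, and the DESeq2 calls over all genes are given below. The list counts were not tested against these, so they are no result about the lists. Between XX WT and XY WT germ cells, 1 gene of the survival list was higher, Lin28a, an RNA-binding protein of early germ cells (log2 difference 1.05, SE 0.17, edgeR adjusted p = 0.0171), and 1 was lower, Pmaip1, a pro-apoptotic BCL2 family member (-3.83, SE 0.53, edgeR adjusted p = 0.00759). Both are fragile, since the Lin28a call was lost without any 1 of its 4 libraries and that of Pmaip1 without any but XY WT replicate 2 (edgeR adjusted p up to 0.245 and 0.163). As background, 0.363% of genes were higher and 0.45% lower in that comparison.

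Gonadal somatic cells of the -KTS KO had 5 genes of the KIT list called in XX and 7 in XY, of 33, with 5 and 7 of 23 in the CXCL12 list and 4 and 6 of 23 in the survival list, where 16.4% and 23.6% of all genes were called. With any 1 library left out the XX counts were 1 to 2, 1 and 2 to 3 in the 3 lists and the XY counts 3 to 5, 4 to 5 and 3 to 4, while in XX +KTS KO no KIT or survival list gene was called by edgeR. Of the 33 KIT list genes, 0 were higher and 5 lower in XX -KTS KO (list median -0.00 on the log2 scale, all genes 0.01), and 1 was higher and 6 lower in XY -KTS KO (median -0.19, all genes 0.01). In +KTS KO, 2 were higher and 1 lower in XX, and 1 higher and 3 lower in XY. Of all genes, 6.7% were higher and 9.74% lower in XX -KTS KO, with 11.1% and 12.5% in the XY comparison. For the +KTS KO the shares of all genes were 2.35% higher and 2.69% lower in XX, with 6.21% and 6.61% in XY. Fyn and Lyn, SRC family kinases that KIT engages, were lower in XY -KTS KO (Fyn -1.59, SE 0.18, edgeR adjusted p = 0.000359, and Lyn -1.70, SE 0.28, edgeR adjusted p = 0.00241) and in XX -KTS KO (Fyn -0.99, edgeR adjusted p = 0.00589, and Lyn -0.95, edgeR adjusted p = 0.0464). The XX calls were lost for Fyn without XX -KTS KO replicate 2 and for Lyn without any 1 of its libraries. Pik3r1, the regulatory subunit of PI3 kinase, was higher in XY -KTS KO (1.95, SE 0.21, edgeR adjusted p = 0.000237). Stat3, a transcription factor of cytokine signalling, was lower in XX -KTS KO (-0.87, edgeR adjusted p = 0.0261), a call lost without any 1 library. In XY +KTS KO, Ptpn6, a phosphatase that damps KIT, was lower (-2.19, SE 0.26, edgeR adjusted p = 0.00127), as were the kinases Map2k1 (-0.80, edgeR adjusted p = 0.00547) and Mapk3 (-0.72, edgeR adjusted p = 0.00927), whose calls did not pass with a term for the libraries that stand apart though the differences stayed near (-0.73, edgeR adjusted p = 0.113, and -0.70, edgeR adjusted p = 0.140). The Mapk3 call was also lost without XY WT replicate 1. In XX +KTS KO, Pik3r1 was lower and the adaptors Sh2b2 and Socs1 higher, by -1.06, 1.02 and 0.87, and each of these calls was lost without any 1 library (edgeR adjusted p up to 0.252).

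Of the 23 CXCL12 list genes, 2 were higher and 3 lower in XX -KTS KO, and 1 was higher and 6 lower in XY -KTS KO (list median -0.11, all genes 0.01). In +KTS KO, 1 was higher and 0 lower in XX, and 3 were higher and 2 lower in XY. Over all genes the shares were 6.7% higher and 9.74% lower in XX -KTS KO, with 11.1% and 12.5% in XY -KTS KO. For the +KTS KO they were 2.35% and 2.69% in XX and 6.21% and 6.61% in XY. The list counts were not tested against these shares. Ptk2b, a focal adhesion kinase relative that chemokine receptors activate, was lower than in XY WT in XY -KTS KO (-3.28, SE 0.30, edgeR adjusted p = 0.000111) and in XY +KTS KO (-2.85, SE 0.30, edgeR adjusted p = 0.000747). Elmo1, part of a RAC activator, was lower in XY -KTS KO (-2.77, SE 0.53, edgeR adjusted p = 0.00498). Arrb1, a beta-arrestin that binds active receptors, was higher in XX +KTS KO (1.81, SE 0.22, edgeR adjusted p = 0.00312). The RAC exchange factors Vav3 (-1.93, edgeR adjusted p = 0.0254) and Vav2 (-0.79, edgeR adjusted p = 0.0139) were lower in XX -KTS KO, calls lost without any 1 library, while in XY +KTS KO Vav2 was higher (0.92, edgeR adjusted p = 0.0102) and the co-receptor Sdc4 lower (-1.02, edgeR adjusted p = 0.0257). With a term for the libraries that stand apart these were 0.75 (edgeR adjusted p = 0.197) and -0.99 (edgeR adjusted p = 0.248). The Vav2 call was lost without XY WT replicate 1 and that of Sdc4 without either XY WT library, and Sdc4 was -1.55 without XY +KTS KO replicate 1 and -0.63 without replicate 2.

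Of the survival list, 23 genes were tested in gonadal somatic cells. For the -KTS KO, 1 was higher and 3 lower in XX, and 2 were higher and 4 lower in XY (list median -0.15, all genes 0.01). For the +KTS KO, 0 were higher in either sex, 2 were lower in XX and 3 were lower in XY. Beside these counts, 6.7% of all genes were higher and 9.74% lower in XX -KTS KO, with 11.1% and 12.5% in XY -KTS KO. In the +KTS KO the shares were 2.35% and 2.69% in XX and 6.21% and 6.61% in XY, and the list counts were not tested against them. Dnd1, an RNA-binding protein needed for germ cell survival, was lower in -KTS KO somatic cells of XX (-2.21, SE 0.29, edgeR adjusted p = 0.00126) and XY (-1.95, SE 0.29, edgeR adjusted p = 0.00142). Utf1, a germ cell marker, moved with it, at 5.98 and 10.00 CPM in XX -KTS KO and 41.1 and 40.1 CPM in XX WT, and at 5.72 and 4.76 CPM in XY -KTS KO and 26.2 and 47.8 CPM in XY WT. The other germ cell markers were lower in both XY -KTS KO libraries, where their sum without Utf1 in somatic cells was 10.7 and 11.3 CPM in -KTS KO and 25.3 and 49.8 CPM in WT, and Dazl was 0.488 and 0.522 CPM against 1.14 and 2.63 CPM. In XX these sums overlapped, at 8.95 and 47.6 CPM in -KTS KO and 21.5 and 11.2 CPM in WT. Their part in the Dnd1 result was not tested. Ifitm3, an interferon-induced membrane protein also known as a germ cell marker, was lower in XX -KTS KO (-1.86, SE 0.23, edgeR adjusted p = 0.000965) and in XX +KTS KO (-1.35, SE 0.23, edgeR adjusted p = 0.0119), the latter lost without any 1 library. Its relative Ifitm1 was lower in XX -KTS KO (-1.42, edgeR adjusted p = 0.0123), a call that held without XX WT replicate 2 alone. In XY -KTS KO, Cdh1, the epithelial cadherin (-2.79, edgeR adjusted p = 0.0409), and Ror2, a receptor of WNT5A (-1.41, edgeR adjusted p = 0.0111), were lower, the first lost without any 1 library and the second held without XY WT replicate 2 alone. In XY +KTS KO, Epcam, an epithelial adhesion protein (-1.01, edgeR adjusted p = 0.00914), and Bcl2, an inhibitor of apoptosis (-0.72, edgeR adjusted p = 0.0279), were lower, at -0.80 (edgeR adjusted p = 0.187) and -0.59 (edgeR adjusted p = 0.332) with a term for the libraries that stand apart. The Bcl2 call was also lost without any 1 library but XY +KTS KO replicate 1. Bbc3, a pro-apoptotic gene, was lower in XX +KTS KO (-0.89, edgeR adjusted p = 0.0396), lost without any 1 library.

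Between the sexes of WT, XX gonadal somatic cells had 2 KIT list genes higher and 4 lower, 1 CXCL12 list gene higher and 4 lower, and 1 survival list gene in each direction, where 6.63% of all genes were higher and 7.18% lower. Ptk2b (-3.87, SE 0.31, edgeR adjusted p = 0.000137) was lower in XX, and Pik3r1 (1.26, SE 0.20, edgeR adjusted p = 0.0038) and Ifitm3 (1.84, SE 0.23, edgeR adjusted p = 0.00128) were higher. Elmo1 (-3.10), Ptpn6 (-1.50), Sh2b2 (-1.37), Arrb1 (-0.96) and Bcl2l1 (-0.67) were lower in XX as well. Each of these 5 calls was lost without a library, for Elmo1 and Sh2b2 XX WT replicate 2, for Ptpn6 XX WT replicate 1, for Arrb1 XX WT replicate 1 or XY WT replicate 1, and for Bcl2l1 any but XY WT replicate 2. Of the 50 calls of listed genes named in gonadal somatic cells, differences between the sexes included, 18 held with each of their libraries left out in turn.

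Endothelial cells, which line blood vessels, carried Kitl, Kit and Cxcr4, and their values are given as a description, with no test. In XX, Cxcr4 there was at 9.27 and 7.91 CPM in WT, 36.0 and 33.5 CPM in -KTS KO and 22.4 and 27.0 CPM in +KTS KO. In XY it was at 4.83 and 7.19 CPM in WT, 16.4 and 55.2 in -KTS KO and 11.3 and 9.59 in +KTS KO. Every mutant library lay above the WT libraries of its sex. A cluster of 439 endothelial cells led by Etv2, Clec1b and Cldn5 was 93.6% WT and low in Cxcr4 (0 to 2.67 CPM) and Kitl (9.77 to 29.7 CPM). In the other 1620 endothelial cells Cxcr4 was 10.9 to 13.3 CPM in XX WT, 33.5 to 36.0 in XX -KTS KO and 22.5 to 27.0 in XX +KTS KO, and 7.42 to 12 in XY WT against 16.4 to 55.2 in XY -KTS KO, so these groups still did not overlap. XY +KTS KO, at 9.59 to 14.3, overlapped XY WT there. Endothelial Kitl was 154 and 149 CPM in XX WT, 77.0 and 106 in XY WT and 209 and 246 in XY -KTS KO. Without the WT cluster the XY values were 157 to 182 CPM in WT and 209 to 246 in -KTS KO.

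The genes most like each member were sought over 42 profiles of cell class by library among 9368 genes, by Pearson's r of log2(CPM + 1). For Kitl these were Anxa2, Mdfi, Gpx8, Rab13 and Cdkn1c (r = 0.97 for each), and for Kit they were Icmt (0.90), Trim71, 4930452B06Rik and Hmgn5 (down to 0.86). Cxcl12 was most like Ptn (0.93), Twist1, Mfap4, 6720468P15Rik and Hoxc5 (down to 0.91), and Cxcr4 most like Cdr2 (0.92), Crip2, Abcg2, Fam89a and Pik3c2b (down to 0.90). Between members, Kit and Cxcr4 had an r of 0.64 and Kitl and Cxcl12 of 0.50, while Kit and Cxcl12 (-0.61), Kitl and Kit (-0.54) and Cxcl12 and Cxcr4 (-0.54) ran opposite. Over the 26 gonadal somatic clusters (8454 genes) the picture differed: Kitl and Cxcl12 ran opposite (-0.56), Kit and Cxcl12 ran together (0.80), and Kitl and Kit had an r of -0.17. There the likest genes were Tmem203 for Kitl (0.93), Adrb3 for Kit (0.92) and Ptn for Cxcl12 (0.93), followed by Fkbp9, Zmym3, Cgn and Aldoc for Kitl, Tmtc2, Scand1, Zfpl1 and Metrnl for Kit, and Gpc3, Asxl3, Cd24a and Gulp1 for Cxcl12. Cxcr4 stayed under 20 CPM in every somatic cluster and was left out. Profiles of a library share its depth and its free RNA, and clusters are not replicates, so these correlations are a description.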

How the data were processed

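Single-cell 3' RNA libraries of mouse gonads at E12 were analysed, 12 in all, with 2 per group. The authors deposited raw UMI counts per gene and cell barcode, made with Cell Ranger 6.0 on mm10 per the labels, with no normalization, and all other steps were computed from them. A floor of 1000 genes and a ceiling of 10% mitochondrial UMIs left 83513 of 103730 barcodes. The highest Scrublet scores (scanpy 1.11.5) were removed at 0.8% per 1000 barcodes, since Scrublet's own threshold was erratic, which took 5968 barcodes and left 77545 cells, with a median of 10638 to 19162 UMIs per library. Cells were clustered with Seurat 5.3.0 and sctransform 0.4.2 (3000 variable genes without the 4 genes and their pathway lists, 50 components, 20 neighbours, resolution 0.8), which gave 36 clusters. Clusters were named "X-like" from fixed markers, where at least 3 were raised and seen in at least 20% of cells with a mean score of at least 0.5 (pseudocount 5 CPM). The clusters had been seen when these thresholds were chosen. Names rebuilt in this way can differ from those of the study.

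UMIs were summed per library and class, given as CPM, and tested with edgeR 4.0.16 (quasi-likelihood test, TMM, filterByExpr, all 12 libraries with 1 term per group, 95% intervals) at a Benjamini-Hochberg adjusted p of 0.05, which was tested on simulated data. The library was the replicate. The labels call the 2 libraries of a group independent, and p-values measure the spread between such libraries. For shares, cells were thinned to 5000 UMIs and shallower cells left out, and intervals and floors cover counting error only. Genes named were the 4 members, Ackr3, up to 3 called genes per list and comparison with the largest difference, and the 5 genes most like each member, a few of which are not reported here. The members and lists were chosen with earlier results of these data known. Alternatives were DESeq2 1.42.0, no low-count filter, each library left out, only the 2 groups compared, a replicate block, doublets kept, log-normalized clustering, resolutions 0.4 and 1.2, germ cells by markers, mean CPM per cell, thinning to 3000 UMIs, and, added after seeing the data, a term for the 4 libraries that stand apart and cells of at least 5000 UMIs. The labels and the study's methods name different versions of the 3' kit (2 and 3). Python 3.11.15 and R 4.3.3 were used.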

Additional observations from a re-analysis of the deposited data

Results flagged for a closer look

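In gonadal somatic cells, 10 effects on listed genes differed between XX and XY by the test of the difference itself, given here as the XX effect minus the XY effect on the log2 scale. They are 4 for the -KTS KO and 6 for the +KTS KO, out of 33, 23 and 23 genes tested in the KIT, CXCL12 and survival lists, where 3.1% and 4.04% of all genes were called. None of the 4 members was among them. For the +KTS KO the difference was 3.84 for Ptk2b (XX 0.99, XY -2.85), 1.82 for Ptpn6 (XX -0.38, XY -2.19), -1.76 for Pik3r1 (XX -1.06, XY 0.70), 1.55 for Sh2b2 (XX 1.02, XY -0.53), -1.75 for Ifitm3 (XX -1.35, XY 0.40) and 0.82 for Map2k1, the fourth by size in its list and not followed further. For the -KTS KO it was 3.74 for Elmo1 (XX 0.96, XY -2.77), 3.55 for Ptk2b (XX 0.27, XY -3.28), -1.32 for Pik3r1 (XX 0.64, XY 1.95) and -1.60 for Ifitm3 (XX -1.86, XY -0.26). Both Ptk2b differences held with each of 8 libraries left out in turn. The difference was lost in 7 of 8 such fits for Elmo1 and for Pik3r1 in -KTS KO (both held without XY WT replicate 2 alone), in 6 for Sh2b2 and for Ifitm3 in -KTS KO, in 5 for Ptpn6, in 4 for Ifitm3 in +KTS KO (each XX WT and XX +KTS KO library) and in 2 for Pik3r1 in +KTS KO (XX WT replicate 2 and XX +KTS KO replicate 2). With a term for the libraries that stand apart the differences for Ptpn6 (1.89, edgeR adjusted p = 0.0544), Sh2b2 (1.47, edgeR adjusted p = 0.0701) and Pik3r1 in -KTS KO (-1.31, edgeR adjusted p = 0.0542) did not pass, nor did the last with the replicate block (-1.32, edgeR adjusted p = 0.0586). Sh2b2 held without XX WT replicate 1 or XY +KTS KO replicate 2, Ifitm3 in -KTS KO without either XY WT library, and Ptpn6 without XY WT replicate 2, XY +KTS KO replicate 2 or XX +KTS KO replicate 2.

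Endothelial cells entered no test, and 5 of their group means were at least 2 times the WT mean with both libraries above WT. The mean of Kitl was 227 CPM in XY -KTS KO, where XY WT had 91.4 CPM. For Cxcr4 the means in XX were 34.8 CPM in -KTS KO, 24.7 CPM in +KTS KO and 8.59 CPM in WT, and those in XY were 35.8 CPM in -KTS KO and 6.01 CPM in WT. Mean Cxcl12 was 6.12 CPM in XX -KTS KO against 0.924 CPM in XX WT, but the 2 -KTS KO libraries were at 1.29 and 10.9 CPM, beside 18.8 CPM of Cxcl12 in erythroid and platelet lineage cells of XX -KTS KO replicate 2. A WT-rich endothelial cluster moves with these values, as given above. Without it Cxcl12 was 0.98 to 1.68 CPM in XX WT, which spans the lower of the 2 XX -KTS KO libraries.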

How the results depend on the processing

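With 2 libraries per group, single libraries decide many calls. Over both ligands in gonadal somatic cells and both receptors in germ cells, 401 values under other settings kept their direction and side of the threshold, 13 newly passed, 10 no longer passed and 20 changed sign. Most of the 401 were uncalled values that stayed uncalled. The only calls among these results were Cxcl12 in XX and in XY -KTS KO, and all 10 losses fell on them. Over Ackr3, Kit in gonadal somatic cells and the named list genes, 745 kept both, 145 no longer passed and 7 changed sign. Kit in gonadal somatic cells of the -KTS KO was called under every setting run.

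Kitl in gonadal somatic cells passed under DESeq2 in XX -KTS KO (-1.06), XX +KTS KO (-1.45) and XX WT against XY WT (0.99), with no low-count filter (-1.08, -1.45 and 1.03), with the replicate block (-1.13, -1.46 and 1.09) and, in XX +KTS KO, from the 2 groups alone (-1.44). Cxcl12 passed in XX +KTS KO with no filter (1.79) and did not pass with a term for the libraries that stand apart (2.61 in XX and 2.17 in XY -KTS KO) or, in XY -KTS KO, with the block (2.02). Sign changes away from left-out libraries were all among uncalled values. Germ cell Kit was 0.055 between the WT sexes with doublets kept, and with the stand-apart term -0.14 in XY +KTS KO and 0.14 for the sex difference of the +KTS KO effect, where germ cell Cxcr4 was -0.21 in XY -KTS KO. Ackr3 in XY +KTS KO was 0.0152 in cells of at least 5000 UMIs, 0.0145 with doublets kept, 0.0213 with log-normalized clustering, 0.0108 with no filter and 0.28 with the stand-apart term. The cause was not tested.

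The number of genes called moved more. In gonadal somatic cells DESeq2 called 1532 in XX +KTS KO and 1319 and 1555 for the sex differences (-KTS, then +KTS), and no filter 1410, 985 and 1286. Fits of only 2 groups gave 1425 and 350 for the +KTS KO, in XX and in XY. The stand-apart term gave 1849 in XX -KTS KO, 383 in XX +KTS KO, 234 in XY +KTS KO, 1493 between the WT sexes and 334 for the +KTS sex difference. In germ cells, in the order XX -KTS, XY -KTS, XX +KTS, XY +KTS, WT sexes and the sex differences, DESeq2 called 127, 34, 51, 23, 284, 50 and 45, and no filter 496, 271, 273, 340, 718, 268 and 238. Germ cell fits of 2 groups called 0 in XY -KTS KO, 23 in XX +KTS KO, 1 in XY +KTS KO and 183 between the WT sexes. The block called 0, 72 and 2 (XY -KTS KO, WT sexes, +KTS sex difference), the stand-apart term 5, 0, 6 and 65 (XX -KTS, XY -KTS, XX +KTS, WT sexes), doublets kept 61, 19, 217 and 12 (XY -KTS, XY +KTS, WT sexes, +KTS sex difference), log-normalized clustering 0 in XY -KTS KO, and the marker gate 5 in XY -KTS KO and 2 in XY +KTS KO.

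With 1 library left out, where the lone library is assumed to vary like the other groups, counts in gonadal somatic cells ran from 1185 to 1532 (XX -KTS KO), 2160 to 2693 (XY -KTS KO), 146 to 307 (XX +KTS KO), 731 to 3083 (XY +KTS KO), 817 to 2018 (WT sexes), 95 to 699 and 185 to 1548 (sex differences). In germ cells they ran from 0 to 8, 0 to 2, 2 to 9, 0 to 1, 16 to 43, 1 to 9 and 2 to 23 in the same order. Kitl ran from -1.71 to -0.61 in XX -KTS KO (called without XX -KTS KO replicate 2), -0.30 to 0.79 in XY -KTS KO, -1.01 to 0.0704 in XY +KTS KO, -1.85 to -0.75 and -1.51 to -0.44 for the sex differences (-KTS, then +KTS) and 0.57 to 1.65 between the WT sexes (called without XY WT replicate 2). Cxcl12 ran from 2.23 to 2.74 in XX and 1.58 to 2.89 in XY -KTS KO, 0.49 to 2.47 in XX and -1.11 to 0.47 in XY +KTS KO, and -0.38 to 0.93 and 0.82 to 2.91 for the sex differences (-KTS, then +KTS). Germ cell Kit ran from -0.0739 to 0.53 in XY -KTS KO, -0.26 to 0.0241 between the WT sexes, and -0.0404 to 0.57 and -0.19 to 0.0899 for the sex differences. Germ cell Cxcr4 ran from -0.38 to 0.42 in XY -KTS KO, -0.27 to 0.0117 between the WT sexes and -0.0221 to 0.78 for the -KTS sex difference. Ackr3 ran from 2.17 to 3.46 in XX -KTS KO, 0.17 to 1.86 in XX +KTS KO and -0.34 to 0.27 in XY +KTS KO.

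Shares of cells rose without thinning, to means over libraries of 7.76% in germ, 55.9% in gonadal somatic and 71.7% in endothelial cells for Kitl, 82.1%, 7.16% and 29.0% for Kit, 3.86%, 29.2% and 3.99% for Cxcl12, and 23.1%, 1.64% and 20.4% for Cxcr4. Thinned to 3000 UMIs, Kitl was at 36.7% in endothelial, Kit at 22.7% and Cxcr4 at 2.04% in germ cells. As the mean of single cells, Cxcl12 in germ cells was 1.98 CPM. For pairing by replicate number, the replicate 1 minus replicate 2 differences in log CPM were correlated between the 2 groups of a comparison. The r was 0.45 in gonadal somatic and 0.51 in germ cells for XY -KTS KO against XY WT. In the other comparisons it was -0.47 to 0.20. No steady pairing was seen, so the replicate number was no block in the main comparisons.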
